A study of Mus musculus with 29 samples.

Results

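The genes described here are Atf4, the transcription factor of the amino acid stress response, and 9 genes listed as its targets: Atf5, Asns, Trib3, Chac1, Psat1, Phgdh, Ddit3, Mthfd2 and Sesn2. They were found by symbol in a table of 24346 genes, and all 10 were present. The table gives FPKM, a fragment count scaled by transcript length and by a measure of library size, from polyadenylated RNA of liver and hippocampus. Which measure of library size was used is not given in the sources used here. All animals were male C57BL/6J mice with diet-induced obesity: each group had eaten high-fat diet for 10 weeks before it spent 4 weeks on 1 of 4 regimens. The HFD group stayed on high-fat diet with free access to food, and the HFD-IF group stayed on it but was fasted every other day. The CC group was moved to control chow with free access, and the CC-IF group was moved to control chow with intermittent fasting. The age of the mice, and whether the fasted groups were taken on a fed or a fasted day, are not stated in the labels. Lean mice that never ate high-fat diet are not among the groups, so each comparison is between formerly or still obese animals. Each group had 4 libraries except HFD-IF in liver, which had 2, and CC-IF in hippocampus, which had 3, so that 29 of the 32 samples that the study states were analysed. Libraries are named by the index in their column of the table, which starts at 0.

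ATF4 is made when the initiation factor eIF2 is phosphorylated by a kinase that senses a stress, such as GCN2 for missing amino acids, PERK for misfolded protein in the endoplasmic reticulum or HRI for mitochondrial and haem stress. General translation then falls, while the Atf4 messenger, which carries short upstream reading frames, is translated better, so ATF4 protein can change without a change in its messenger. The protein binds DNA with C/EBP partners and raises genes that make amino acids, charge tRNAs and import amino acids, and with them genes that limit the response or lead to cell death. In liver this response is known for its part in protein restriction and in endoplasmic reticulum stress, and in brain the serine branch is known to be strong in astrocytes.

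The binding site of ATF4 with C/EBP, the C/EBP-ATF response element, is shown because it is the sequence by which the listed genes are thought to answer ATF4. Promoter windows from RefSeq (GRCm38.p6, 250 bases before to 50 bases after each start) were found for all 10 genes, 12 windows in all because Atf5 and Psat1 have more than 1. They were searched on both strands for TGATGNAA, where N is any base. A match was found for Chac1, Asns and Trib3, and 3.97% of all 32851 promoters hold one. A match is a run of letters and not a proven site, and no match says only that these letters are not in the window. Capitals mark the match, and each sequence runs 5′ to 3′ on the strand of its gene.
Chac1, chr2:119350992-119351228, plus strand: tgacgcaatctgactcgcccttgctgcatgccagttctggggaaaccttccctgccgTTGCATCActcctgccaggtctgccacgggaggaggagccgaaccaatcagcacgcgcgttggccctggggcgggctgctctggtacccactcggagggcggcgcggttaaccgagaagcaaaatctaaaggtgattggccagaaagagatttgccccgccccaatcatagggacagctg
Asns, chr6:7693214-7693243, minus strand: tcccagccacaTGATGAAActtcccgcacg
Trib3, chr2:152344028-152344057, minus strand: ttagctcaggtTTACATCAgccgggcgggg
The Chac1 match starts 193 bases before the RefSeq start and reads in the reverse direction. Its 8 letters, TTGCATCA, are the reverse complement of a form of the motif that 0.895% of all promoters hold. The Asns match starts 23 bases before the RefSeq start and reads in the forward direction, inside the longer gene that GENCODE draws there. The Trib3 match lies after the RefSeq start, in the reverse direction, but before the start of the gene that GENCODE draws, at 152344032. The endoplasmic reticulum stress element, a longer motif searched in the same way, was found in 0.119% of all promoters and in 0 of the 12 windows. Of the 3 genes with a match, Chac1 was called lower after fasting on chow in liver, and Asns and Trib3 were not called in any comparison of regimens.

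The tissues differed in which of the genes were abundant. The amino acid synthesis enzymes were hippocampal: phosphoglycerate dehydrogenase (Phgdh), which begins serine synthesis, had a median of 22.8 FPKM in 15 hippocampal and 0.0944 FPKM in 14 liver libraries. Phosphoserine aminotransferase (Psat1), the next enzyme of that pathway, had medians of 25.6 and 0.267 FPKM, and asparagine synthetase (Asns) of 31.2 and 1.33 FPKM. For each of these 3 genes all hippocampal libraries lay above all liver libraries, and the ratio of medians was 242 for Phgdh, 95.7 for Psat1 and 23.5 for Asns. The reverse held for Atf5, a transcription factor of the same family with 272 FPKM in liver against 9.76 in hippocampus, and for Trib3, a pseudokinase that restrains ATF4, with 3.61 against 0.158. All liver libraries lay above all hippocampal ones for both, by ratios of medians of 27.9 and 22.9. Such a separation of all libraries is common: it was seen with liver above in 33% and with hippocampus above in 23.1% of the 9939 genes kept in both tissues. Those genes include Atf5 and Asns but not Trib3, Psat1 and Phgdh, which had a mean under 1 FPKM in 1 tissue. The share among such genes was not computed.

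**Figure D1:**
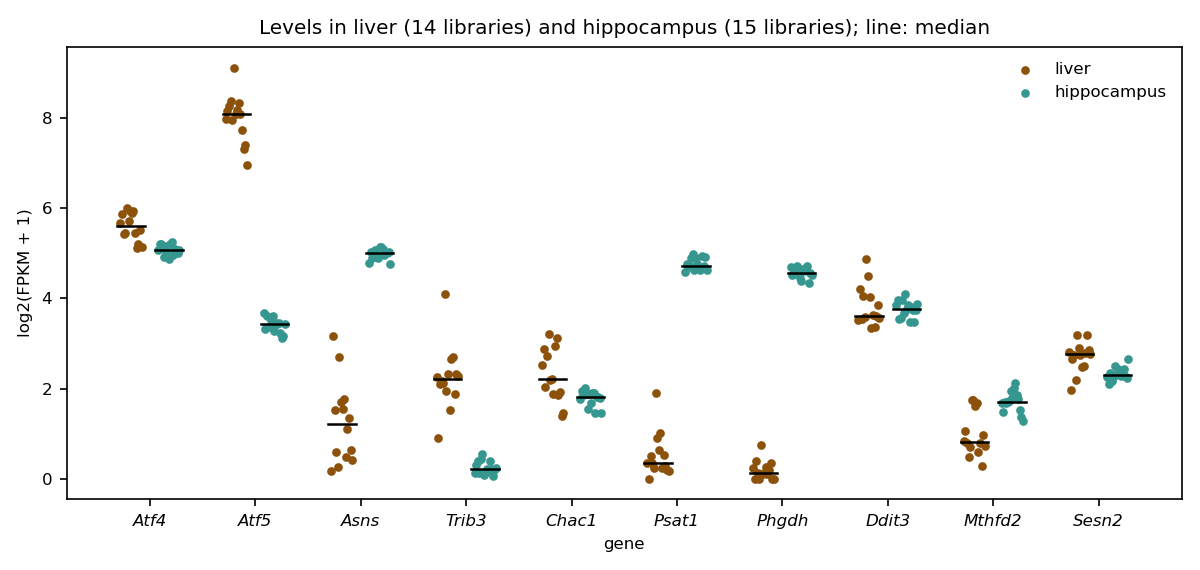
Level of each gene as log2(FPKM + 1) on the vertical axis, with 1 point per library (14 liver, 15 hippocampus) and a line at the median. Atf5 and Trib3 lie higher in every liver library, Asns, Psat1 and Phgdh in every hippocampal library, and the other 5 genes overlap.

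The other 5 genes had ranges that overlapped between tissues. Median FPKM in liver and hippocampus was 47.6 and 32.8 for Atf4, 11.3 and 12.7 for Ddit3 (CHOP, a factor tied to cell death under lasting stress), and 5.79 and 3.95 for Sesn2 (a leucine sensor that holds back mTORC1). It was 3.6 and 2.5 for Chac1, which breaks down glutathione, and 0.758 and 2.27 for Mthfd2, a mitochondrial folate enzyme. Between the CC groups, limma on log2(FPKM + 1) called 5 of the 7 genes that passed the filter of a mean of 1 FPKM in both tissues, where 80.2% of all genes were called. Atf4, Atf5 and Chac1 were higher in liver by 0.68 ± 0.11, 4.78 ± 0.17 and 0.78 ± 0.23 (SE), and Asns and Mthfd2 were lower by -3.68 ± 0.45 and -0.53 ± 0.21. The median of all genes in that comparison was 0.129 as deposited, 0 after median-ratio rescaling and -0.146 after upper-quartile rescaling, and the Atf4 value became 0.53 and 0.36 under these rescalings and remained called. Mthfd2 lost its call without liver CC library 3 (-0.25, limma adjusted p = 0.204) and without hippocampal CC library 0 or 1 (limma adjusted p = 0.0544 and 0.0703), with a pseudocount of 0.1 (-0.82, limma adjusted p = 0.0611) and in a fit of the 2 groups alone (limma adjusted p = 0.0587). Trib3, Psat1 and Phgdh, which the filter removed in 1 tissue, differed by 1.87, -4.06 and -4.51 in a fit without the filter (limma adjusted p = 6.01e-06, 5.03e-15 and 1.07e-21).

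The labels' tissues were checked on defining markers. The neuronal genes Rbfox3, Snap25 and Camk2a had medians of 107, 662 and 851 FPKM in hippocampus and at most 0.529 FPKM in any liver library, and the astrocyte genes Gfap and Slc1a3 had medians of 77.2 and 96.7 FPKM in hippocampus and 0.176 and 0.104 in liver. Aldh1l1, a folate enzyme that also marks astrocytes in brain, went the other way, with medians of 9.67 FPKM in hippocampus and 393 in liver. Alb, the albumin gene, reached 44000 FPKM in liver but was listed at 0 in 8 of 14 liver libraries, so a listed 0 in this table can be a failed estimate. For genes with few fragments a listed 0 can also mean that no fragment was sampled. Phgdh was listed at 0 in 4 liver libraries and Psat1 in 1, and no mean is given for them in liver. Between 15087 and 16343 genes were above 0 in a liver library, and between 17160 and 18057 in a hippocampal one. Depth, read approximately from low values, was 9.87 to 16.6 M fragments in liver and 11.3 to 39.1 M in hippocampus. In these units the liver values of Phgdh rest on about 19 fragments or fewer, and Asns in HFD library 0 on about 2.2. Other liver values are also thinly covered: Psat1 in the CC-IF livers rests on about 3.9 to 13 fragments and Mthfd2 there on about 4.8 to 20. Asns in HFD-IF library 0 rests on about 4.5.

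In liver, Atf4 and Atf5 fell with fasting on chow, and Chac1 fell with less certainty. Atf4 (chr15:80255184-80257541) stood at 60.4, 58.9, 60.7 and 43.0 FPKM in the 4 CC livers and at 33.8, 36.2, 45.1 and 34.6 FPKM in the 4 CC-IF livers. CC library 3 lay below CC-IF library 2, so the groups overlapped by 1 library on each side. Atf4 fell by 0.56 on the log2 scale (SE 0.14, 95% interval -0.862 to -0.255, limma adjusted p = 0.012), from a mean of 55.8 ± 8.5 to 37.4 ± 5.2 FPKM (SD, n = 4 and 4). It remained called in 9 of 9 other settings and without each of 14 libraries in turn, with log2 changes between -0.676 and -0.513.

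Atf5 (chr7:44812256-44816658), which switches on mitochondrial chaperones when protein import fails, was the most abundant of the genes in liver. It stood at 272, 289, 321 and 272 FPKM in the CC livers and at 213, 160, 169 and 124 FPKM in the CC-IF livers. Every CC-IF liver lay below every CC liver, and the same held against the HFD livers, at 254, 287, 307 and 333 FPKM. It fell by 0.81 on the log2 scale against CC (SE 0.21, limma adjusted p = 0.0152) and by 0.84 against HFD (SE 0.21, limma adjusted p = 0.0135). Both calls held in 9 of 9 other settings and without each of 14 libraries. Groups that do not overlap, with CC-IF lower, were found in 11.4% of all genes against CC and in 12.9% against HFD. The exons of Atf5 share 82 nt with the genes Il4i1 and Nup62 on the opposite strand, and whether FPKM were computed by strand is not stated.

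Chac1 (chr2:119351229-119354381) stood at 3.61, 2.66, 6.75 and 7.73 FPKM in the CC livers and at 2.64, 2.77, 1.61 and 1.76 FPKM in the CC-IF livers. CC library 1 lay within the CC-IF range, below CC-IF library 1, so the groups overlapped. CC library 0 lay near that range and CC libraries 2 and 3 far above it. In the HFD livers it stood at 4.72, 6.37, 3.08 and 5.60 FPKM, all above the CC-IF livers, a separation found in 12.9% of all genes. The log2 change was -0.88 ± 0.30 (SE) against CC and -0.88 ± 0.30 against HFD (limma adjusted p = 0.0475 and 0.0482). These are the least certain of the calls, and both were lost without the filter (limma adjusted p = 0.0855 and 0.0852) and without the trend (0.0501 and 0.0507). Against CC the call was lost without any of the 4 CC-IF libraries, without CC library 0, 2 or 3 and without HFD library 0, 1 or 3, with log2 changes of -0.994 to -0.686 and limma adjusted p up to 0.126. Against HFD it was lost without any CC-IF library, without HFD library 0, 1 or 3 and without CC library 0 or 2, with log2 changes of -0.967 to -0.766 and limma adjusted p up to 0.12.

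Of the 8 genes tested in liver, 3 fell and 0 rose from CC to CC-IF, and 6 of 8 were lower. In that comparison 24% of all 11497 genes were called, 9.77% lower and 14.2% higher, so the share that fell was larger among the 8 genes than among all genes, a description with no test. The median log2 change was -0.531 over the 8 genes and 0.022 over all genes. From HFD to CC-IF, 2 fell and 0 rose, where 23.7% of all genes were called and 11.3% called lower, and Atf4 had a log2 change of -0.36 ± 0.14 (limma adjusted p = 0.0843). All 10 markers of liver macrophages were also lower in CC-IF than in CC, 1 past the threshold, with a median log2 change of -0.506 and summed levels of 118 to 190 FPKM in CC-IF and 179 to 339 FPKM in CC livers. Their part in the result was not tested. In bulk tissue, fewer cells of a type and less RNA per cell cannot be told apart.

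**Figure D2:**
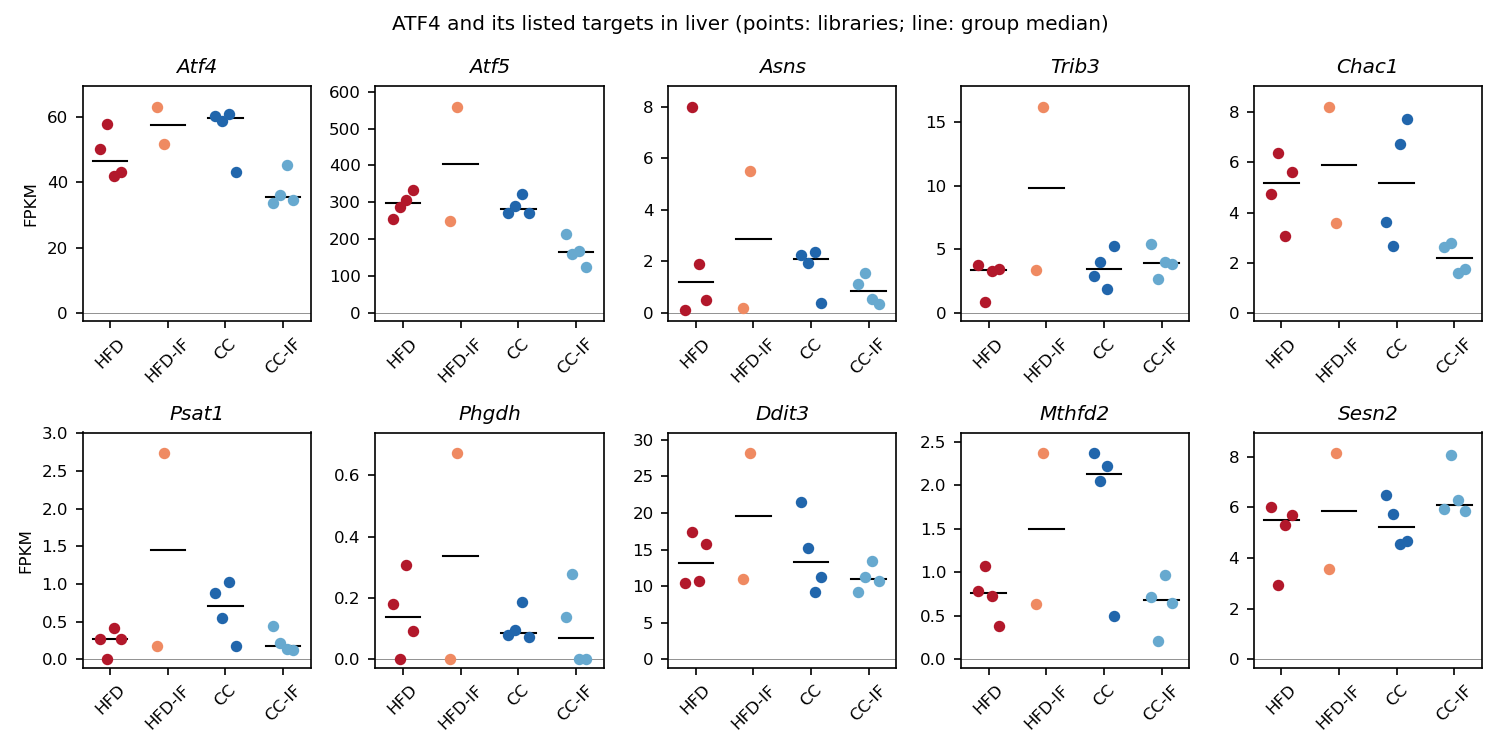
FPKM in each of the 14 liver libraries (points) by regimen, with a line at the group median and 1 panel per gene, each on its own vertical scale. The group median is lowest in CC-IF for Atf4, Atf5 and Chac1, and also for Asns, Psat1, Phgdh, Ddit3 and Mthfd2. HFD-IF library 1 is the highest of all 14 libraries in 7 panels.

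The other transcription factor, Ddit3 (chr10:127290774-127296288), did not pass. It stood at 21.6, 15.3, 9.21 and 11.3 FPKM in the CC livers and at 9.27, 11.2, 13.5 and 10.8 FPKM in the CC-IF livers, with a log2 change of -0.28 ± 0.29 (SE). The groups overlapped over most of their ranges. Its exons share 68 nt with Mars on the opposite strand and 105 nt with a shorter gene model of the same symbol.

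The enzymes of amino acid and folate synthesis were low and uneven in liver. Mthfd2 (chr6:83305691-83325908) stood at 2.37, 2.05, 2.22 and 0.503 FPKM in the CC livers, at 0.719, 0.211, 0.967 and 0.649 FPKM in the CC-IF livers and at 0.790, 1.075, 0.727 and 0.385 FPKM in the HFD livers. CC libraries 0 to 2 lay well above both other groups and CC library 3 lay within them. The log2 change from CC to CC-IF was -0.72 ± 0.28 (limma adjusted p = 0.0831), and without CC library 3 it was -0.99 (limma adjusted p = 0.0111). It also passed without HFD-IF library 0 or 1 (limma adjusted p = 0.0492 and 0.0495) and with libraries weighted by quality (-0.83, limma adjusted p = 0.0165), and with a pseudocount of 0.1 it was -1.30 (limma adjusted p = 0.106). From HFD to CC it was 0.62 ± 0.28 (limma adjusted p = 0.264). The Mthfd2 values of the CC-IF livers rest on only about 4.8 to 20 fragments.

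Asns (chr6:7675169-7693254) ranged from 0.121 to 8.01 FPKM within the 4 HFD livers, at 0.121, 8.01, 1.88 and 0.494. It stood at 2.26, 1.94, 2.38 and 0.395 FPKM in the CC livers and at 1.13, 1.53, 0.552 and 0.333 FPKM in the CC-IF livers. The spread within HFD was wider than any distance between groups, and the log2 change from CC to CC-IF of -0.50 had a 95% interval of -1.855 to 0.846. CC library 3, which was low for Atf4 and Mthfd2, was again the lowest of its group.

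Psat1 (chr19:15904678-15947337) had 0.876, 0.547, 1.02 and 0.175 FPKM in the CC livers, at most 0.437 in the CC-IF livers and at most 0.419 in the HFD livers. CC libraries 0 to 2 were above both of those groups, and library 3 was not. Without the filter the log2 change from CC to CC-IF was -0.40 ± 0.29 (limma adjusted p = 0.45). Phgdh (chr3:98313170-98339990) was at most 0.308 FPKM in all livers but HFD-IF library 1, which had 0.672.

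Trib3 and Sesn2, which restrain parts of the response, did not pass. Trib3 (chr2:152337422-152344032) stood at 2.87, 4.02, 1.89 and 5.27 FPKM in the CC livers and at 5.45, 2.66, 4.03 and 3.83 FPKM in the CC-IF livers, overlapping groups with a log2 change of 0.17 ± 0.41. Sesn2 (chr4:132492032-132510501) stood at 6.47, 5.74, 4.56 and 4.67 FPKM in CC and at 5.94, 8.06, 6.27 and 5.85 FPKM in CC-IF livers. Its log2 change was 0.24 ± 0.22 (limma adjusted p = 0.459). For both the group difference lay within the spread of the libraries.

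Moving from high-fat diet to chow with free feeding called 0 of the 8 genes in liver (2.3% of all genes). A simulated log2 change of 0.5 was recovered there in 42% of genes, so a change of that size can be missed. An unadjusted p under 0.05 was found for 1 of the 8, Mthfd2, and for 2148 of all 11497 genes. Atf4 stood at 50.05, 57.9, 41.9 and 43.0 FPKM in the HFD livers, and its change of 0.20 had a 95% interval of -0.1 to 0.507. That of Atf5 was -0.03, with an interval of -0.491 to 0.434, and that of Chac1 0.002, with one of -0.643 to 0.647. The groups overlapped in all 10 genes, where they did not overlap in 14.1% of all genes.

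Fasting on continued high-fat diet also called 0 of the 8 genes in liver (1.32% of all genes), and its 2 libraries disagreed. For this comparison a simulated log2 change of 0.5 was recovered in 30% of genes. An unadjusted p under 0.05 was found for 1 of the 8 and for 2043 of all 11497 genes. Trib3 stood at 3.36 FPKM in HFD-IF library 0 and at 16.2 in library 1, against 3.74, 0.866, 3.30 and 3.48 in the HFD livers, and its log2 change was 1.26 ± 0.50 (limma adjusted p = 0.216). Atf5 stood at 248 and 559 FPKM in the same libraries, and Ddit3 at 10.98 and 28.2. Asns stood at 0.198 and 5.51, Psat1 at 0.175 and 2.74, Mthfd2 at 0.637 and 2.37 and Sesn2 at 3.57 and 8.14 FPKM. Atf4 and Chac1 went the other way, with 63.1 and 51.6 FPKM and with 8.22 and 3.59 FPKM.

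HFD-IF library 1 was the highest of the 14 livers in 7 of the 10 genes. Among all genes tested, which leave out Psat1 and Phgdh of those 7, that library was highest in 14.4% and lowest in 15.5%. It also held the most genes above 0, and the summed level of 9 markers of stellate cells and fibroblasts was 521 FPKM there and at most 240 in the other livers. The 10 macrophage markers summed to 569 FPKM in it and to at most 339 elsewhere. The part of these cells in the result was not tested. All 8 tested genes were higher in HFD-IF than in HFD with both libraries, with a median of 0.297. Without library 1, 3 were higher and 5 lower, with a median of -0.159. Without library 0, 2 passed: Atf5 at 0.93 and Trib3 at 2.25 (limma adjusted p = 0.0172 and 0.0106), with 1631 genes called in all and the lone library assumed to vary like the other groups.

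Whether fasting acted differently on the diets was tested as an interaction, the fasting change on chow minus that on high-fat diet. It called 0 of the 8 genes (1.11% of all genes), and 4 had an unadjusted p under 0.05, as did 2101 of all 11497 genes. The difference was -0.81 ± 0.22 for Atf4 and -1.16 ± 0.34 for Atf5 (limma adjusted p = 0.0914 and 0.108). For Atf5 it was -1.74 without HFD-IF library 0 and -0.57 without library 1 (limma adjusted p = 0.00244 and 0.408). For Atf4 it was -0.93 and called without CC library 3 (limma adjusted p = 0.0492). Without HFD-IF library 0 it was also called for Trib3 (-2.08) and Mthfd2 (-1.68), with limma adjusted p = 0.0324 and 0.0307. Between the fasted groups, CC-IF against HFD-IF, 0 of 8 passed (0.591% of all genes). Of the 8, 3 had an unadjusted p under 0.05, as did 2091 of all 11497 genes. Atf5 differed by -1.18 ± 0.26 (limma adjusted p = 0.058). Averaged over both diets, fasting called 0 of 8 genes (19.8% of all genes). An unadjusted p under 0.05 was found for 1 of the 8 and for 3947 of all 11497 genes.

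**Figure D3:**
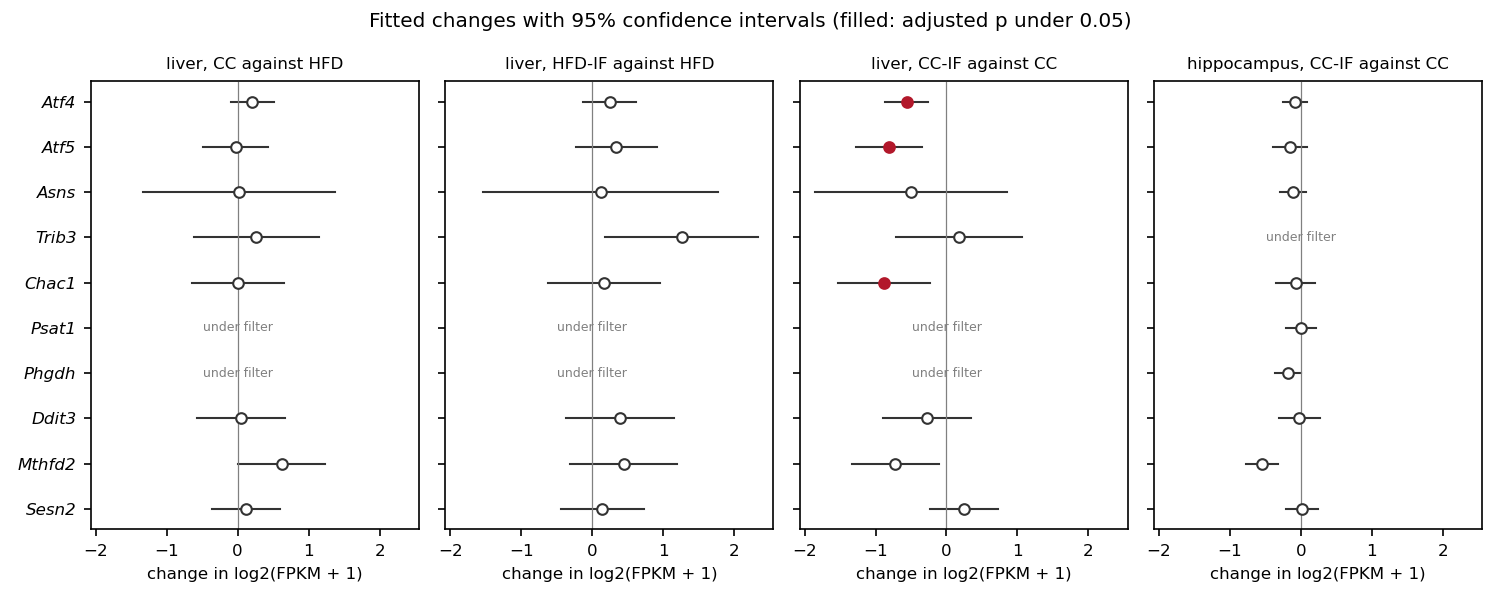
Fitted change of each gene in log2(FPKM + 1), with its 95% confidence interval, for 3 comparisons in liver and 1 in hippocampus. Filled points passed an adjusted p of 0.05: Atf4, Atf5 and Chac1 for CC-IF against CC in liver, and none in the other panels.

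In hippocampus, 0 of the 9 genes tested passed in any of the 7 comparisons of regimens. Few genes of any kind did: 0% of 12857 genes from HFD to CC, from HFD to HFD-IF, from HFD to CC-IF, from HFD-IF to CC-IF and in the interaction, 0.00778% from CC to CC-IF and 0.0622% for fasting averaged over the diets. In each comparison 1 or 2 of the 9 genes had an unadjusted p under 0.05, as did 383 to 1317 of all 12857 genes. The 7 comparisons reuse the same groups, and most include CC-IF, so they are not independent tests. Mthfd2 was among the genes under 0.05 in 6 of the 7. It had 3.03, 3.34, 2.60 and 2.38 FPKM in the CC hippocampi and 1.88, 1.57 and 1.43 FPKM in the CC-IF hippocampi. In the groups on high-fat diet it had 2.21, 1.81, 2.27 and 2.22 FPKM without fasting and 2.25, 2.29, 2.85 and 2.48 FPKM with it. The CC-IF libraries lay below every CC and every HFD-IF library, and the CC libraries lay above every HFD library, separations found in 4.98%, 2.78% and 1.77% of all genes.

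From CC to CC-IF the hippocampal Mthfd2 level changed by -0.55 ± 0.11 on the log2 scale (95% interval -0.772 to -0.32), the eighth smallest p of 12857 genes (limma unadjusted p = 0.000123, adjusted p = 0.198). In the interaction its -0.70 ± 0.14 had the smallest p of all (limma unadjusted p = 0.000235, adjusted p = 0.982). From HFD to CC the change was 0.29 ± 0.10 (limma adjusted p = 0.994). Markers of tissue next to the hippocampus moved with that comparison: all 7 meningeal and all 6 tested choroid plexus markers were lower in CC than in HFD, 0 past the threshold, with medians of -0.693 and -1.029. The meningeal sum was 372 to 588 FPKM in HFD and 211 to 300 FPKM in CC hippocampi, and the choroid plexus sum 44.4 to 1800 and 22.2 to 1680 FPKM. In the interaction all of them were higher, with medians of 0.76 and 1.314. From CC to CC-IF, 4 meningeal markers were higher and 3 lower (median 0.01), and the 6 choroid plexus markers were lower (median -0.137). Their part in the Mthfd2 values was not tested. The change from CC to CC-IF was between -0.613 and -0.484 without each of 15 libraries in turn, called in 0 of them, and it was called when libraries were weighted by quality (-0.58, limma adjusted p = 0.018, with 47 genes called). About 40 fragments supported the lowest of these values.

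Phgdh, which feeds serine to the folate cycle that Mthfd2 belongs to, had 24.1, 23.3, 24.2 and 25.6 FPKM in the CC hippocampi and 19.2, 22.7 and 22.1 FPKM in the CC-IF hippocampi. Each CC-IF library lay below each CC library by a small margin, as in 4.98% of all genes. The change was -0.18 ± 0.08 (limma adjusted p = 0.751). The HFD libraries, at 21.97 to 25.1 FPKM, spanned both. Psat1, between them in the pathway, had 25.2, 29.1 and 23.9 FPKM in CC-IF and 23.8 to 29.9 FPKM in CC, with a log2 change of 0.001 (95% interval -0.206 to 0.208).

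**Figure D4:**
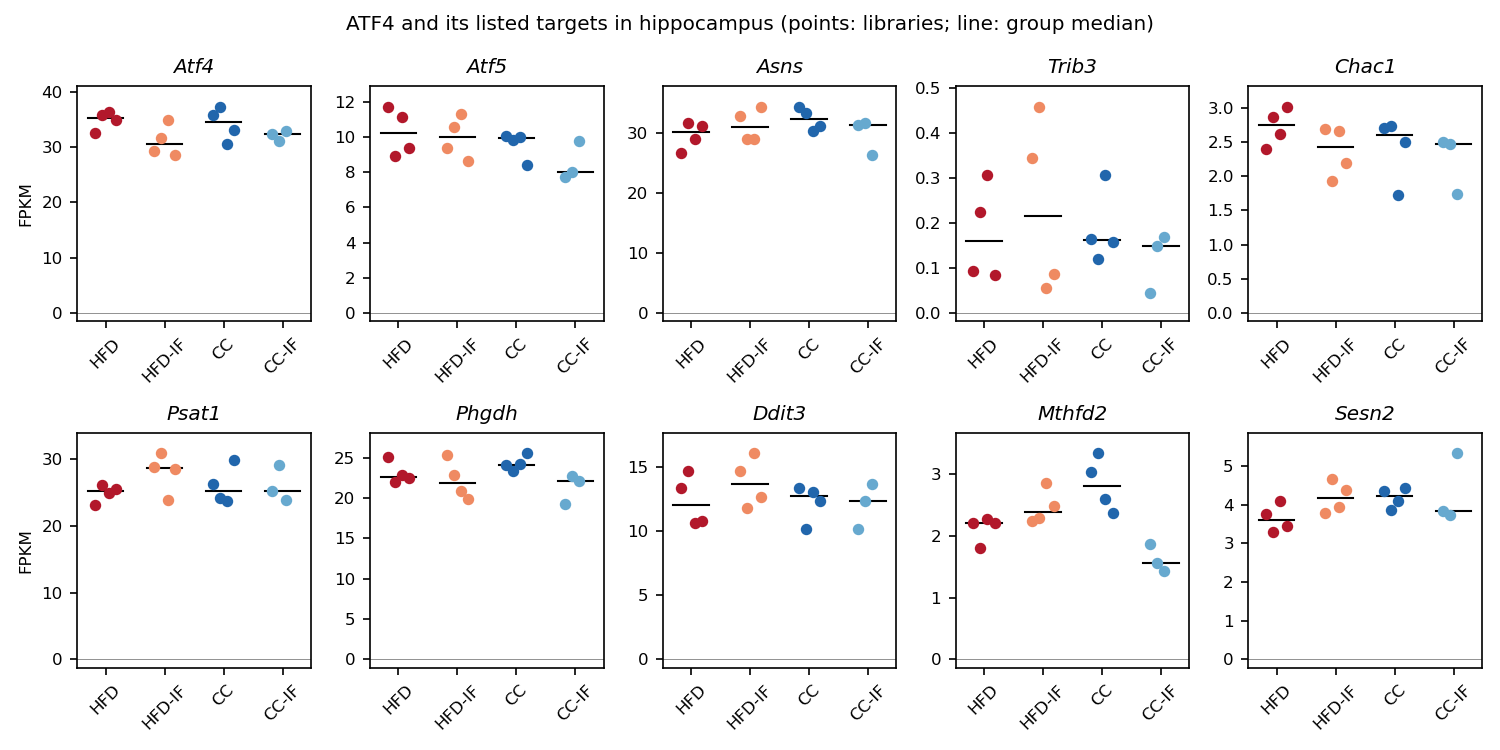
FPKM in each of the 15 hippocampal libraries (points) by regimen, with a line at the group median and 1 panel per gene, each on its own vertical scale. The 3 CC-IF libraries are lower than all CC libraries for Mthfd2 and Phgdh, as in 4.98% of all genes, and overlap the CC libraries in the other panels.

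The factors that fell in liver had narrow ranges in hippocampus. Atf4 had 35.8, 37.3, 30.5 and 33.1 FPKM in the CC and 32.4, 31.0 and 32.8 FPKM in the CC-IF hippocampi, and 28.5 to 37.3 FPKM over all 15 libraries. Atf5 ranged from 7.75 to 11.7 FPKM, Asns from 26.4 to 34.4, Ddit3 from 10.2 to 16.1, Chac1 from 1.73 to 3.02 and Sesn2 from 3.30 to 5.33 FPKM. Trib3 was at most 0.458 FPKM, which stands for 13 fragments or fewer. The largest group shift of Atf4 was from HFD to HFD-IF, at -0.16 ± 0.07 (limma adjusted p = 0.645).

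Whether the fasting response on chow differed between the tissues was tested in 1 model over both. It called 0 of 7 genes, where 13.8% of all genes were called. Of the 7, 3 had an unadjusted p under 0.05, as did 2649 of all 9939 genes. Liver minus hippocampus was -0.47 ± 0.17 for Atf4, -0.66 ± 0.25 for Atf5 and -0.81 ± 0.34 for Chac1 (limma adjusted p = 0.0561, 0.0798 and 0.119). For Atf4 it passed after median-ratio or upper-quartile rescaling (limma adjusted p = 0.0427 and 0.0253). For Mthfd2 it was -0.17, with a 95% interval of -0.815 to 0.466. The response to the diet switch (1.39% of all genes) and to fasting on high-fat diet (1.63%) also differed in 0 of 7 genes. At an unadjusted p under 0.05 there were 0 and 1 of the 7, and 1373 and 1522 of all 9939 genes.

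Around the 10 genes, 8 lists of neighbouring pathways were read in liver from CC to CC-IF. In that comparison 24% of all genes were called, 14.2% higher and 9.77% lower. A change given from HFD to CC-IF instead joins the diet switch with fasting. Of 20 cytosolic aminoacyl-tRNA synthetases, which charge tRNAs and are in part ATF4 targets, 12 fell, 0 rose and 8 did not pass, with a median of -0.462. Tars, for threonine, went from 105 ± 15 to 39.6 ± 3.6 FPKM and Cars, for cysteine, from 19.5 ± 1.8 to 7.80 ± 1.9 FPKM (SD, n = 4 and 4). Nars, for asparagine, fell by 0.88 and Wars, for tryptophan, by 0.84 on the log2 scale. The count was 12 to 14 without each library in turn. Of 21 genes of folding in the endoplasmic reticulum under ATF6 and XBP1, 19 fell and 0 rose, with a median of -1.578.

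**Figure D5:**
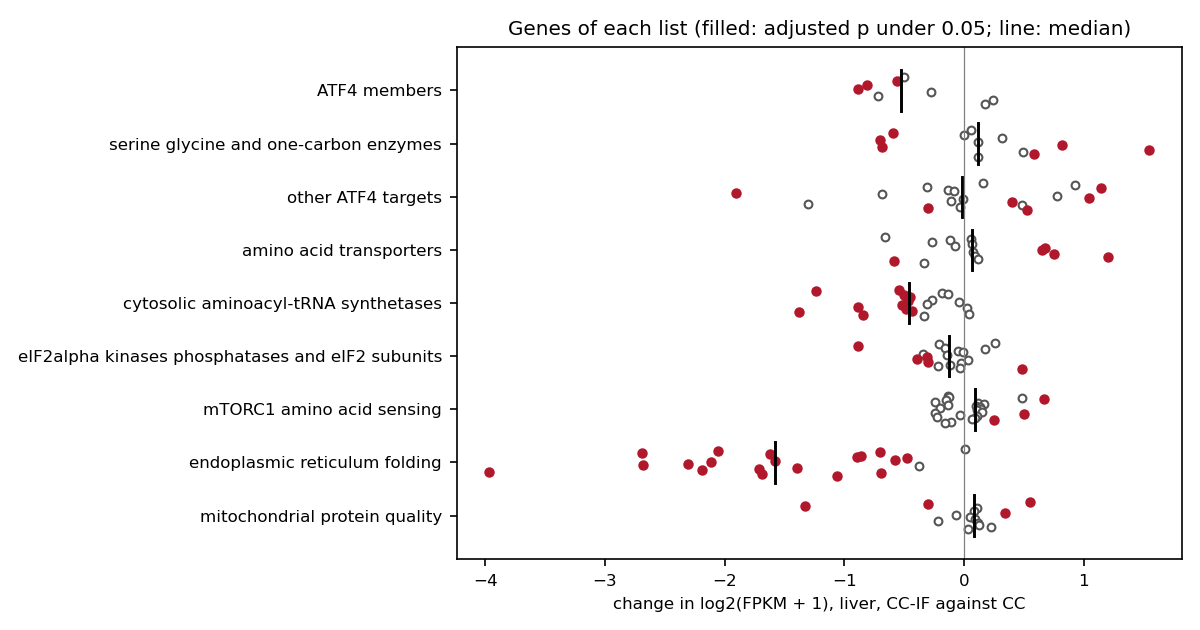
Change in log2(FPKM + 1) of each tested gene of the 10 ATF4 genes (top row) and of 8 neighbouring lists, liver, CC-IF against CC, filled where adjusted p was under 0.05, with a line at each median. The tRNA synthetases and the endoplasmic reticulum folding genes lie mostly to the left of 0, and the other lists lie on both sides.

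Upstream of ATF4, 4 of 18 genes for eIF2, its kinases and its phosphatases fell and 1 rose, a share called near that of all genes. Eif2ak3, which encodes the kinase PERK, went from 12.03 ± 2.6 to 6.04 ± 1.2 FPKM, and Eif2s2, a subunit of eIF2, fell by 0.39 on the log2 scale. Ppp1r15b, which helps remove the phosphate from eIF2, rose by 0.48. Oma1, the mitochondrial protease that relays stress to HRI, fell by 0.81 from HFD to CC-IF but was not called from CC to CC-IF. The gene named Dele1, the partner of Oma1 in that relay, was not found by symbol in the table.

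Other listed targets of ATF4 went both ways. Of 18 tested, 4 rose and 2 fell, with a median of -0.022: Cth, of cysteine synthesis, went from 105 ± 20 to 231 ± 27 FPKM and Gpt2, a mitochondrial alanine aminotransferase, from 88.3 ± 4.6 to 186 ± 42 FPKM. Tfeb, a factor of lysosome genes, rose by 0.52, and Map1lc3b, of autophagosomes, by 0.52 against HFD. Among 15 amino acid transporters 4 rose and 1 fell. The shares called in these lists, 6 of 18 and 5 of 15, were not far above the 24% of all genes. Slc7a2, which carries arginine, went from 97.8 ± 23 to 222 ± 18 FPKM, the glutamine carrier Slc38a3 rose by 0.67 and Slc38a4 by 0.65, and the lysosomal Slc36a1 fell by 0.87 against HFD.

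Enzymes next to Psat1, Phgdh and Mthfd2 split evenly, with 3 of 12 rising and 3 falling, where 24% of all genes were called. Sds, which breaks serine down to pyruvate, rose from 88.1 ± 9.3 to 260 ± 41 FPKM. Gldc and Amt of glycine cleavage fell by 1.02 and 0.79 from HFD to CC-IF. Aldh1l1, a folate enzyme, fell by 0.81 from HFD to HFD-IF, where HFD-IF had only 2 livers. From HFD to CC, without fasting, 3 of the 12 genes fell, where 1.97% of all genes did. Of 25 genes of amino acid sensing by mTORC1, in which Sesn2 acts, 3 rose and 0 fell, a share below the 24% of all genes, among them Rragc (0.50) and Fnip1 (0.67). Against HFD, 2 of the 25 rose and 6 fell, where 23.7% of all genes were called and 11.3% called lower. Lamtor2 and Sesn3 were among those that fell, by 0.36 and 0.39. Of 14 genes of mitochondrial protein quality, known from work on Atf5, 2 rose and 2 fell, a share called near that of all genes: the protease Afg3l2 went from 29.1 ± 0.82 to 43.1 ± 0.15 FPKM, the unfoldase Clpx from 102 ± 14 to 40.3 ± 6.6 FPKM, and Clpp fell by 0.30. In hippocampus, 0 genes of these 8 lists passed in any comparison of regimens.

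Across libraries the 10 genes did not move as 1 block. Over the 14 livers, Pearson's r on log2(FPKM + 1) was 0.665 between Atf4 and Mthfd2, 0.537 between Atf4 and Atf5, 0.527 between Atf4 and Chac1 and 0.346 between Atf4 and Asns. With group means removed these were 0.48, -0.262, -0.045 and 0.241. Psat1 and Phgdh had r = 0.788 in liver and 0.42 without HFD-IF library 1, and Trib3 and Psat1 had 0.628 and 0.009. Chac1 and Sesn2 had r = -0.643 in liver and -0.721 over the 15 hippocampi. These values are descriptions over libraries that share regimen, depth and RNA handling.

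The genes most like Atf4 in liver by r over 14 libraries were Akirin1 (0.894), Ppp4c (0.874), Dnm2 (0.871), Nup160 (0.854) and Brwd3 (0.85), and those most like Asns were Cyb561 (0.879), 9330159M07Rik (0.843), Fam187b (0.839), Ifi27 (0.838) and Hist1h3i (0.824). In hippocampus, over 15 libraries, Atf4 was most like Slc2a4rg-ps (0.807), Rab40c (0.769), 3300002I08Rik (0.755), Gm7334 (0.752) and C230004F18Rik (0.732). There the gene most like Asns was Nars (0.882, and 0.915 with group means removed), the tRNA synthetase for the amino acid that Asns makes, followed by Morc4 (0.876), Gatad1 (0.866), Vamp3 (0.86) and Macrod2 (0.85).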

How the data were processed

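The authors deposited 1 table of FPKM with a column for each library. Per the submitters' processing notes, reads were handled with TopHat2 2.1.1, Bowtie2 2.3.5.1, Trimmomatic 0.39 and FastQC 0.11.9, on mouse genome GRCm38 (mm10). Which program computed FPKM, with which annotation, library scaling and use of strand, is not given in the sources used here. Per the labels' protocols, libraries came from a stranded kit and were read as pairs of 125 nt.

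Column names give tissue and regimen but count libraries from 0, where the labels count from 1, so columns were tied to groups and not to numbered samples. The study calls samples of a group biological replicates. In 40 comparisons within groups 99.99% or more of the values differed (Pearson's r 0.934 to 0.977), and no library was treated as a repeat. Depth was estimated from steps in low FPKM, assuming fragments of 200 nt. Of these low values 56.4% to 74% came within 0.2 of a whole number of fragments (40% by chance), so depths are rough and no count test was run.

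FPKM were taken as log2(FPKM + 1), a scale that understates changes of low genes. Genes with a mean of at least 1 FPKM in the tissue were kept, 11497 in liver with 8 of the 10 genes (Psat1 and Phgdh were not kept) and 12857 in hippocampus with 9 (Trib3 was not kept). The 4 regimens of a tissue entered 1 limma fit with an intensity trend (limma 3.58.1, R 4.3.3), with two-sided tests, Benjamini-Hochberg adjustment over all genes kept and a threshold of 0.05. Tissues were compared in a fit of all 8 groups on 9939 genes, with libraries treated as independent. The procedure was tested on simulated data. Tables and plots used matplotlib 3.10.9, numpy 2.4.6 and pandas 2.3.3 in Python 3.11.15. Errors after ± are SE for log2 changes and SD for FPKM.

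The 10 genes, the 8 lists and the marker lists were chosen with earlier results of these data known. From each list up to 4 genes are named, those past the threshold with the smallest p in any of 4 liver comparisons, and for likeness the 5 genes with the highest r to Atf4 and to Asns. Positions are from GENCODE M21 on GRCm38 and promoters from RefSeq on GRCm38.p6. Alternatives were pseudocounts of 0.1 and 0.5, no filter or a mean of 5 FPKM, median-ratio and upper-quartile rescaling, no trend, library weights, the groups of the comparison alone, and each library left out in turn.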

Additional observations from a re-analysis of the deposited data

Results flagged for a closer look

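In groups of 4 libraries, 60 groups of the 10 genes were searched for a library far from the other 3, and 4 were found, where chance gives about 1 in 20. Atf4 in liver CC library 3 had 43.02 FPKM, with the next at 58.85. Trib3 in liver HFD library 1 had 0.8658 FPKM, with the next at 3.303. Atf5 in hippocampus CC library 3 had 8.414 FPKM, with the next at 9.822. Mthfd2 in hippocampus HFD library 1 had 1.805 FPKM, with the next at 2.21.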

How the results depend on the processing

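No paired analysis was possible because the columns carry no replicate number of the labels. The number of genes called from CC to CC-IF in liver was 3, and 2 to 4 under the other settings and without each library. From HFD to CC-IF it was 2, and 1 (Atf5) without the filter, with a mean of at least 5 FPKM or without the trend, and 1 to 2 without each library. Without each library it was 0 to 2 from HFD to HFD-IF, 0 to 3 from HFD-IF to CC-IF, 0 to 3 in the interaction and 0 to 1 for fasting averaged over diets, where it was 0 with all libraries. In hippocampus it was 1 (Mthfd2) instead of 0 from CC to CC-IF with library weights. Between tissues on chow it was 8 without the filter and 2 of 3 tested with a mean of at least 5 FPKM, instead of 5, and 4 to 5 without each library. For the tissue difference of fasting on chow it was 1 with a mean of at least 5 FPKM, after median-ratio or upper-quartile rescaling, or in a fit of these groups alone, and 2 with library weights, instead of 0. It was 0 to 2 there without each library, and 0 to 1 for the tissue difference of fasting on high-fat diet. The filter settings change how many genes are tested, and for the other settings the cause was not tested. No change called with all libraries and the filter reversed. Changes that were not called did: without HFD-IF library 1, those from HFD to HFD-IF in liver became -0.242 for Atf5 (from 0.343) and -1.1 for Asns (from 0.121), and the Asns interaction became 0.595 (from -0.625). Without HFD-IF library 0, the Chac1 change from HFD to HFD-IF became -0.338 (from 0.165). The liver values of Phgdh, and of Asns in HFD library 0, rest on few fragments. So do other low liver values, among them those of Psat1 and Mthfd2 in the CC-IF livers.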
